A study of Arabidopsis thaliana with 18 samples.

Results

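Seedlings of the Arabidopsis thaliana prmt5 mutant that had been held at 37 °C for 3 days and sampled 24 h after the heat ended (prmt5 recovery, 3 libraries) were compared with prmt5 seedlings kept at 22 °C (prmt5 22 °C, 3 libraries). The comparison covers every gene with a mean of at least 1 TPM (an abundance per gene length that sums to the same total in every library) over these 6 libraries. That is 21152 of the 37916 genes in the deposited table. Both groups carry the T-insert in PRMT5, so the mutation is shared and the contrast is recovery from heat within 1 genotype. The series also holds prmt5 seedlings sampled as the heat ended (prmt5 heat) and wild-type seedlings (WT) of the same 3 stages, with 3 libraries in each of 6 groups and 18 in all. The question is how far the answer to prolonged heat and its end depends on PRMT5. Plants grew on a Murashige and Skoog medium with 1.2% sucrose, and total RNA of seedlings was enriched with oligo-dT and made into libraries with a TruSeq kit. The recovery temperature, the age of the seedlings, the hour of harvest, the insertion site and the kit's strandedness are not given in the sources used here. Whether replicate libraries come from different batches of plants is also unstated, and p-values therefore reflect library-to-library spread that could be purely technical.

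PRMT5 encodes a type II protein arginine methyltransferase, which places symmetric dimethyl marks on arginines of histones, of Sm and LSm proteins of the spliceosome and of RNA-binding proteins such as GRP7. In Arabidopsis, plants without it flower late, keep a long circadian period and splice many pre-mRNAs less well. Recovery from long heat is the stage at which chaperone transcripts are wound down and photosynthesis and growth may resume.

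PRMT5 itself (AT4G31120) was low in both groups. It stood at 4.14, 3.8 and 3.44 TPM in prmt5 recovery, against 2.32, 3.35 and 4.51 TPM in prmt5 22 °C, in the order of library 1, 2 and 3 that is kept throughout. WT libraries held 39, 39.4 and 41.1 TPM at recovery and 27.4, 26.2 and 25.3 TPM at 22 °C. The prmt5 recovery and prmt5 22 °C values overlapped, and the difference of 0.40 TPM had an exact two-sided permutation p of 0.6, where the smallest p that 3 against 3 libraries allow is 0.1. In limma the log2 change was 0.15 (SE 0.17, adjusted p = 0.4). Its sign turned under median-ratio scaling, under quantile normalization and without prmt5 22 °C library 1.

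The prmt5 recovery libraries were the least alike of the 6 groups. Correlations of log2(TPM + 1) across genes, which are not independent replicates, ran from 0.960 to 0.976 in prmt5 recovery and from 0.974 to 0.983 in prmt5 22 °C. Library 3 of prmt5 recovery stood apart. It was the lowest of the 3 recovery libraries for 65.6% of the genes called at least 2-fold higher, and the highest of the 3 for 52.6% of those called at least 2-fold lower, and its snoRNA share of TPM was 1.31% beside 0.231% in the lowest recovery library. Without it 16514 genes were called, beside 16844 with it, and its part in single genes is given where it decides a value. Genes of the light-harvesting antenna, the photosystems and carbon fixation together took 0.579% to 1.21% of TPM in prmt5 recovery and 13.3% to 16.8% in prmt5 22 °C. TPM are shares of a fixed total, so each change is relative to the rest of the library.

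Most genes differed between the groups. Of the 21152 genes tested with limma on log2(TPM + 1), 16844 passed an adjusted p of 0.05 (79.6% of those tested), 11489 higher in prmt5 recovery (54.3%) and 5355 lower (25.3%). At least 2-fold on that scale, 6471 genes were higher (30.6%) and 3119 lower (14.7%). The groups did not overlap for 16681 genes (78.9%). The median log2 change of all genes tested was 0.47. With median-ratio scaling, which sets the typical gene to no change, that median was 0.07 and the calls split into 8604 higher and 7768 lower. Counts of a gene list are read against these percentages, and a list's median against 0.47.

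Of the genes tested, 18491 had a mean of at least 1 TPM in both groups, and 9767 of these were higher in prmt5 recovery and 4740 lower. The other 1917 passed the filter through prmt5 recovery alone and 744 through prmt5 22 °C alone, which favours a difference by construction. At the edge of the filter, AT5G35960 lay just inside, with means of 1.48 TPM in prmt5 recovery and 0.517 TPM in prmt5 22 °C. PDC3 lay just outside, with 0.337 TPM in prmt5 recovery and 1.66 TPM in prmt5 22 °C.

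**Figure D1:**
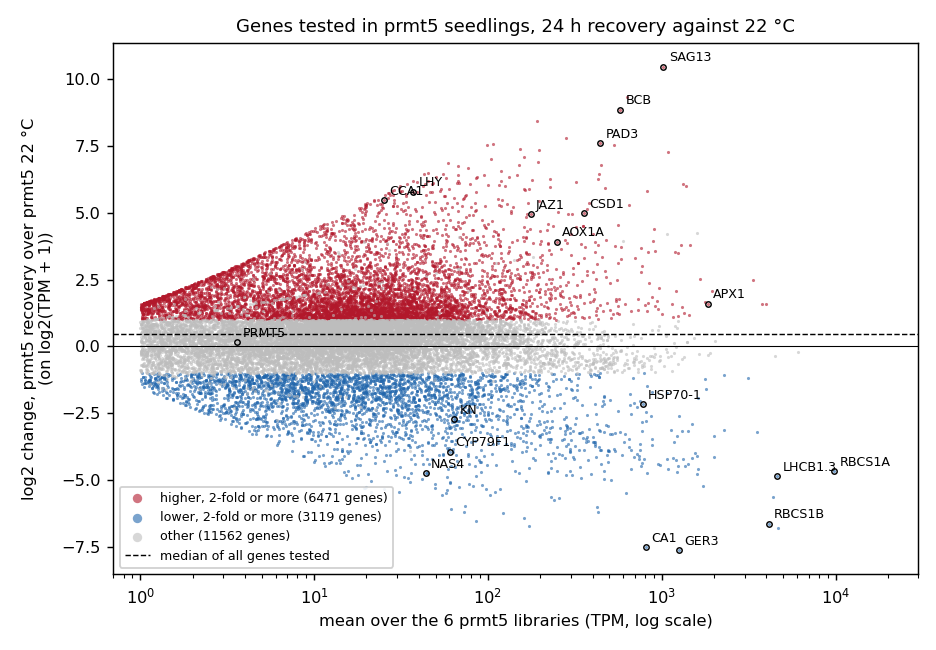
Each point is 1 of 21152 genes, placed by its mean over the 6 prmt5 libraries (TPM, log scale) and by its log2 change in prmt5 recovery over prmt5 22 °C. Genes of photosynthesis such as RBCS1A and CA1 lie at the lower right, SAG13 and BCB at the top, and the dashed line marks the median change of 0.47.

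The genes with the highest changes included markers of senescence, defence and detoxification. SAG13 (AT2G29350), a short-chain dehydrogenase used as a senescence marker, stood at 2238, 2138 and 1749 TPM in prmt5 recovery, against 0.75, 0.22 and 0.39 TPM in prmt5 22 °C (log2 change 10.47, SE 0.42, adjusted p = 6.4e-12). RNS1 (AT2G02990), a secreted ribonuclease known from phosphate starvation and wounding, stood at 1304, 1247 and 1224 TPM in prmt5 recovery, against 0.77, 1.11 and 0.95 TPM in prmt5 22 °C (log2 change 9.34, SE 0.26, adjusted p = 3.2e-13). Both were abundant in every recovery library and close to 0 in every 22 °C library. BCB (AT5G20230), a blue copper-binding protein, reached 1328, 1352 and 777 TPM in prmt5 recovery, against 1.53, 1.41 and 1.26 TPM in prmt5 22 °C (log2 change 8.87, SE 0.24, adjusted p = 2.1e-13). ELI3-2 (AT4G37990), an alcohol dehydrogenase induced by elicitors, had 451, 479.6 and 220.2 TPM in prmt5 recovery and 0, 0.08 and 0.03 TPM in prmt5 22 °C (log2 change 8.45, SE 0.38, adjusted p = 1.9e-11). In both, library 3 was the lowest of the recovery libraries and still far above the 22 °C range. The other genes of the 10 highest were PAD3, described below, the jasmonate oxidase gene JRG21 (7.58 on the log2 scale), the oxidoreductase gene FOX2 (7.40), the nitrate transporter gene NRT1.8 (7.35), the trypsin inhibitor gene TI1 (7.29) and GSTU3. GSTU3 (AT2G29470), a glutathione S-transferase, held 208, 272 and 109.6 TPM in prmt5 recovery and was listed at 0 in all 3 prmt5 22 °C libraries, so no fold is given.

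Genes of chloroplast proteins made up most of the 10 with the lowest changes. GER3 (AT5G20630), a germin-like protein, held 18.8, 5.3 and 14.9 TPM in prmt5 recovery, against 2243, 2821 and 2393 TPM in prmt5 22 °C (log2 change -7.62, SE 0.59, adjusted p = 7.8e-09). CA1 (AT3G01500), a chloroplast carbonic anhydrase, held 6.33, 10.3 and 7.01 TPM in prmt5 recovery, against 1793, 1631 and 1406 TPM in prmt5 22 °C (log2 change -7.52, SE 0.43, adjusted p = 2.2e-10). Both were abundant in every 22 °C library and low in every recovery library. The other 8 of the 10 lowest fell by 5.65 (RBCS3B) to 6.80 (RBCS2B) on the log2 scale: the Rubisco small subunit genes RBCS1B, RBCS2B and RBCS3B, the aldolase gene FBA5, ECS1, PnsL3 of the chloroplast NDH complex, PTAC16 of the plastid chromosome and the latex-protein-like gene MLP28.

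**Figure D2:**
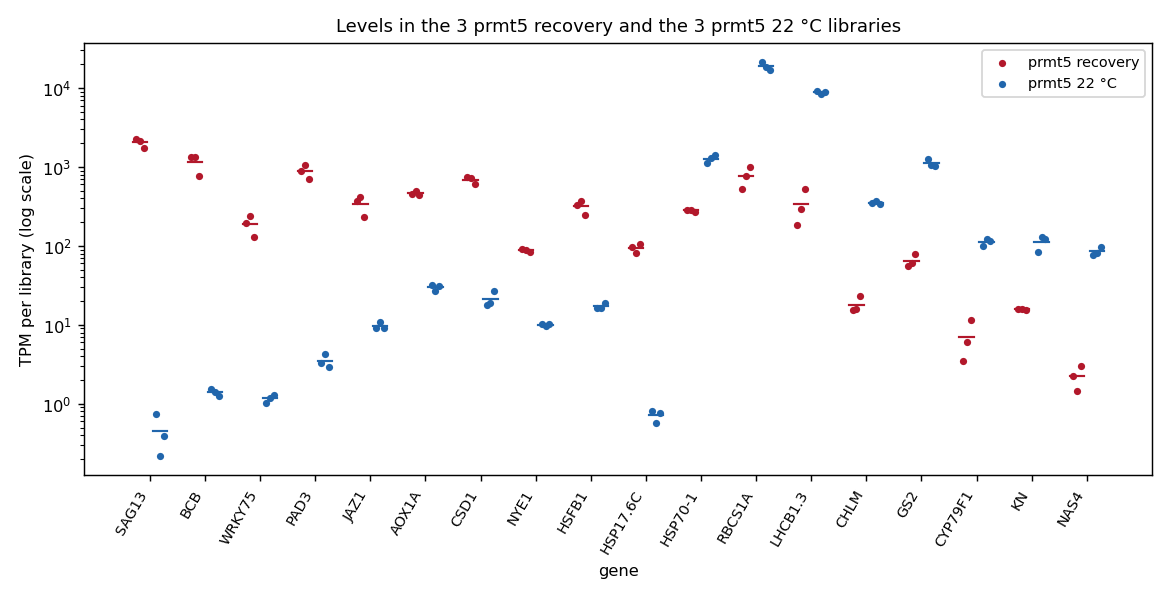
TPM (log scale) of 18 genes in the 3 prmt5 recovery libraries (red, left in each pair) and the 3 prmt5 22 °C libraries (blue, right), with a bar at each mean. For none of these genes do the groups overlap. Library 3 of recovery (rightmost red point) is nearest to the 22 °C range for genes such as BCB and LHCB1.3. Over all genes tested, library 3 was the lowest recovery library for 65.6% of those called at least 2-fold higher. It was the highest for 52.6% of those called at least 2-fold lower.

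Transcripts of the photosynthetic apparatus fell as a whole. All 30 nuclear genes listed as photosystem and electron transport subunits were lower in prmt5 recovery (median log2 change -4.23), as were all 18 Rubisco and carbon fixation genes (median -3.88) and 20 of 21 light-harvesting antenna genes (median -4.03), all of them by at least 2-fold. RBCS1A (AT1G67090), the most abundant Rubisco small subunit transcript, held 523, 759.6 and 989.7 TPM in prmt5 recovery, against 21125, 18586 and 16705 TPM in prmt5 22 °C (log2 change -4.67, SE 0.25, adjusted p = 1.1e-10). RBCS1B (AT5G38430), another small subunit, held 42, 120.0 and 102 TPM in prmt5 recovery, against 9664, 7704 and 7057 TPM in prmt5 22 °C (log2 change -6.63, SE 0.45, adjusted p = 1.6e-09). The RBCS genes are near-identical and their reads can be split between them, but all 4 named here fell. PSBR (AT1G79040), a subunit of photosystem II, stood at 532, 604 and 975 TPM in prmt5 recovery and 7471, 5946 and 5713 TPM in prmt5 22 °C (log2 change -3.22, SE 0.27, adjusted p = 1.8e-08). FNR2 (AT1G20020), which passes electrons to NADP, and PETE1, a plastocyanin, changed by -4.97 and -4.75 on the log2 scale, and PSAD2 of photosystem I by -4.65.

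Among the antenna proteins, which bind chlorophyll and collect light, the major gene LHCB1.3 (AT1G29930) held 186, 293 and 533 TPM in prmt5 recovery, against 9248, 8462 and 8949 TPM in prmt5 22 °C (log2 change -4.85, SE 0.41, adjusted p = 2.4e-08). LHCB2.3 held 0.36, 0.29 and 0.17 TPM in prmt5 recovery and 55.5, 48 and 47.1 TPM in prmt5 22 °C (log2 change -5.33, SE 0.17, adjusted p = 9.6e-13), and LHCB1.4 changed by -5.45 (-4.81 without recovery library 1). Library 3 of recovery set 3 close relatives apart. LHCB2.2 had 17.69, 33.4 and 118 TPM in prmt5 recovery and 126, 117 and 114 TPM in prmt5 22 °C, and LHCB1.1 had 22.9, 30.0 and 128 TPM in prmt5 recovery and 96.8, 103 and 92.6 TPM in prmt5 22 °C. Both passed the threshold (adjusted p = 0.022 and 0.049) and both lost the call without recovery library 1, without recovery library 2 and without prmt5 22 °C library 1. LHCB1.1 also lost it under most other alternatives. Without recovery library 3 their log2 changes were -2.24 and -1.85, beside -1.50 and -1.11 with all libraries, and without recovery library 1 that of LHCB2.2 was -0.91. LHCB2.1 held 59.5, 56.6 and 155 TPM in prmt5 recovery and 111, 100.1 and 99.5 TPM in prmt5 22 °C and did not pass (adjusted p = 0.44). In these 3 genes library 3 lay above or within the 22 °C range, and their near-identical coding sequences leave the split of reads between them uncertain.

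Genes for making chlorophyll fell. Of 20 chlorophyll synthesis genes 19 were tested, 17 were lower, all by at least 2-fold, and none was higher (median -2.81). CHLM (AT4G25080), a methyltransferase of the magnesium branch, held 15.37, 15.8 and 23 TPM in prmt5 recovery, against 348, 372 and 338 TPM in prmt5 22 °C (log2 change -4.24, SE 0.21, adjusted p = 5e-11). CHLI1, a subunit of magnesium chelatase, changed by -2.01. Of 7 breakdown genes 4 rose and 1 fell, shares near those of all genes. NYE1 (AT4G22920), which removes magnesium from chlorophyll a, held 92.6, 88.2 and 84.7 TPM in prmt5 recovery and 10.3, 9.81 and 10.1 TPM in prmt5 22 °C (log2 change 3.01, SE 0.07, adjusted p = 1.1e-13). Its relative NYE2 changed by 3.05. In the same organelle the nitrogen enzyme GS2 (AT5G35630), plastid glutamine synthetase, held 55.7, 60.5 and 79.7 TPM in prmt5 recovery and 1252, 1054 and 1029 TPM in prmt5 22 °C (log2 change -4.08, SE 0.22, adjusted p = 1.5e-10). NIA2, a cytosolic nitrate reductase, was higher (1.31). Of 134 plastid-encoded genes 54 were tested, 35 were lower and 1 higher. Of the 54, 17 passed the filter through 22 °C alone and 6 through recovery alone, so the filter fixed their direction. In bulk seedlings, fewer cells of a type and less RNA per cell cannot be told apart.

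Senescence genes rose strongly. Of 15 listed markers and regulators 14 were tested and 13 rose, all by at least 2-fold, with a median log2 change of 4.17, where 3 passed the filter through recovery alone. Besides SAG13 and BCB, WRKY75 (AT5G13080), a transcription factor that promotes leaf senescence, held 197, 239 and 130.3 TPM in prmt5 recovery, against 1.03, 1.17 and 1.31 TPM in prmt5 22 °C (log2 change 6.41, SE 0.35, adjusted p = 1.5e-10). SAG21 (AT4G02380), a late-embryogenesis-abundant protein of mitochondria, held 2252, 2475 and 1829 TPM in prmt5 recovery and 211, 157 and 189 TPM in prmt5 22 °C (log2 change 3.55, SE 0.29, adjusted p = 1.6e-08). SAG29, a sugar transporter gene of senescing leaves, changed by 5.91. SAG12, a marker of late developmental senescence, did not reach the filter.

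All 24 autophagy genes rose, 18 of them by at least 2-fold (median 1.27). With median-ratio scaling 23 of the 24 rose, 9 of them by at least 2-fold. ATG8B (AT4G04620), a ubiquitin-like protein that is bound to the forming autophagosome, held 85.1, 84.7 and 69.8 TPM in prmt5 recovery, against 6.17, 5.54 and 7.99 TPM in prmt5 22 °C (log2 change 3.42, SE 0.16, adjusted p = 2.2e-11). NBR1 (AT4G24690), a receptor for ubiquitinated cargo, held 397, 428 and 417 TPM in prmt5 recovery and 116, 103 and 112 TPM in prmt5 22 °C (log2 change 1.90, SE 0.09, adjusted p = 3.2e-11). ATG8A changed by 2.53 and ATG8H by 1.95. The 26S proteasome list differed from the background only in its calls. Of 40 subunits 34 rose and 2 fell, with a median of 0.52 beside 0.47 for all genes, and with median-ratio scaling 17 rose and 6 fell. Of the 19 sugar starvation genes 10 rose and 3 fell, a split that turned to 4 and 6 with median-ratio scaling. One of them, BGLU30 (AT3G60140), a beta-glucosidase of dark-treated leaves, held 95.6, 149 and 42.8 TPM in prmt5 recovery and 0.26, 0.22 and 0.21 TPM in prmt5 22 °C (log2 change 6.13, SE 0.49, adjusted p = 1.1e-08).

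The indole and aliphatic branches of sulfur-rich defence compounds went opposite ways. Of 11 genes for camalexin and indole glucosinolates, which start from tryptophan, 8 rose and 1 fell (median 3.25). PAD3 (AT3G26830), which closes the camalexin ring, held 880.2, 1057 and 701 TPM in prmt5 recovery, against 3.25, 4.28 and 2.95 TPM in prmt5 22 °C (log2 change 7.61, SE 0.38, adjusted p = 5.8e-11). CYP79B2 (AT4G39950), which makes indole-3-acetaldoxime from tryptophan, held 1112, 1302 and 824 TPM in prmt5 recovery and 47.8, 42.3 and 43.4 TPM in prmt5 22 °C (log2 change 4.55, SE 0.22, adjusted p = 3.4e-11). CYP71A13, the next enzyme towards camalexin, changed by 5.21. Of 15 genes for aliphatic glucosinolates, which start from methionine, 12 fell and 2 rose (median -2.22). CYP79F1 (AT1G16410), the entry enzyme of that branch, held 3.45, 6.13 and 11.7 TPM in prmt5 recovery, against 100.04, 122 and 117 TPM in prmt5 22 °C (log2 change -3.95, SE 0.52, adjusted p = 3.3e-06). Its regulator MYB28 (AT5G61420) held 6.97, 11.2 and 15.3 TPM in prmt5 recovery and 52.6, 65.5 and 83.5 TPM in prmt5 22 °C (log2 change -2.52, SE 0.27, adjusted p = 2.7e-07), while MYB29 and the chain-elongating enzyme MAM1 changed by -3.54 and -3.34. SUR1, a lyase that both branches use, was higher (1.28).

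In the pathogen and wound signalling families examined, more genes rose than fell, as they did over all genes tested (54.3% higher and 25.3% lower). Of 68 WRKY transcription factors 53 were tested, 45 rose and none fell (median 1.78), where 10 passed the filter through recovery alone. WRKY33 (AT2G38470), which binds camalexin genes, held 311, 335 and 144 TPM in prmt5 recovery and 6.19, 4.73 and 8.42 TPM in prmt5 22 °C (log2 change 5.09, SE 0.27, adjusted p = 9.6e-11). Library 3 was the lowest of the recovery libraries for both WRKY75 and WRKY33. Of 17 genes for salicylic acid, a hormone of immunity to biotrophs, 15 were tested, 13 rose and 1 fell (median 2.17), where 5 passed through recovery alone. WRKY18 (AT4G31800) held 209.9, 196 and 173 TPM in prmt5 recovery and 7.36, 7.37 and 6.73 TPM in prmt5 22 °C (log2 change 4.57, SE 0.14, adjusted p = 5.5e-13). SARD1 and PBS3, which act in the synthesis of salicylic acid, changed by 4.04 and 3.47. PR1 and ALD1, a defence protein and an enzyme of systemic immunity, did not reach the filter.

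Of 27 genes for jasmonate, a hormone of wounding, 26 were tested, 17 rose and 4 fell (median 1.13), where 6 passed through recovery alone. With median-ratio scaling 15 rose and 6 fell. JAZ1 (AT1G19180), a repressor that jasmonate itself induces, held 371, 418 and 235 TPM in prmt5 recovery and 9.14, 10.9 and 9.22 TPM in prmt5 22 °C (log2 change 4.96, SE 0.20, adjusted p = 7.6e-12). JAZ8 had 34.5, 43.4 and 15.8 TPM in prmt5 recovery and 0, 0.17 and 0.20 TPM in prmt5 22 °C. AOC2 (AT3G25770), an allene oxide cyclase of jasmonate synthesis, went down, with 57.1, 53.9 and 108 TPM in prmt5 recovery and 592, 456 and 368 TPM in prmt5 22 °C (log2 change -2.72, SE 0.34, adjusted p = 1.7e-06). Among the cysteine-rich receptor-like kinases 18 of 25 tested rose and 2 fell, where 10 of the 25 passed the filter through recovery alone and 6 of 31 were not tested. CRK36 (AT4G04490) held 28.7, 25.4 and 15 TPM in prmt5 recovery and 0.33, 0.23 and 0.53 TPM in prmt5 22 °C (log2 change 4.096, SE 0.24, adjusted p = 3e-10), and CRK11 and CRK2 changed by 3.47 and 2.28. Of 44 glutathione S-transferases tested, enzymes that tag toxic compounds, 27 rose and 9 fell, shares near those of all genes. Of the 44, 6 passed through recovery alone and 2 through 22 °C alone, and with median-ratio scaling 22 rose and 10 fell. GSTU4 (AT2G29460) held 330.4, 350.1 and 279 TPM in prmt5 recovery and 1.74, 1.58 and 0.77 TPM in prmt5 22 °C (log2 change 7.10, SE 0.32, adjusted p = 2.1e-11).

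**Figure D3:**
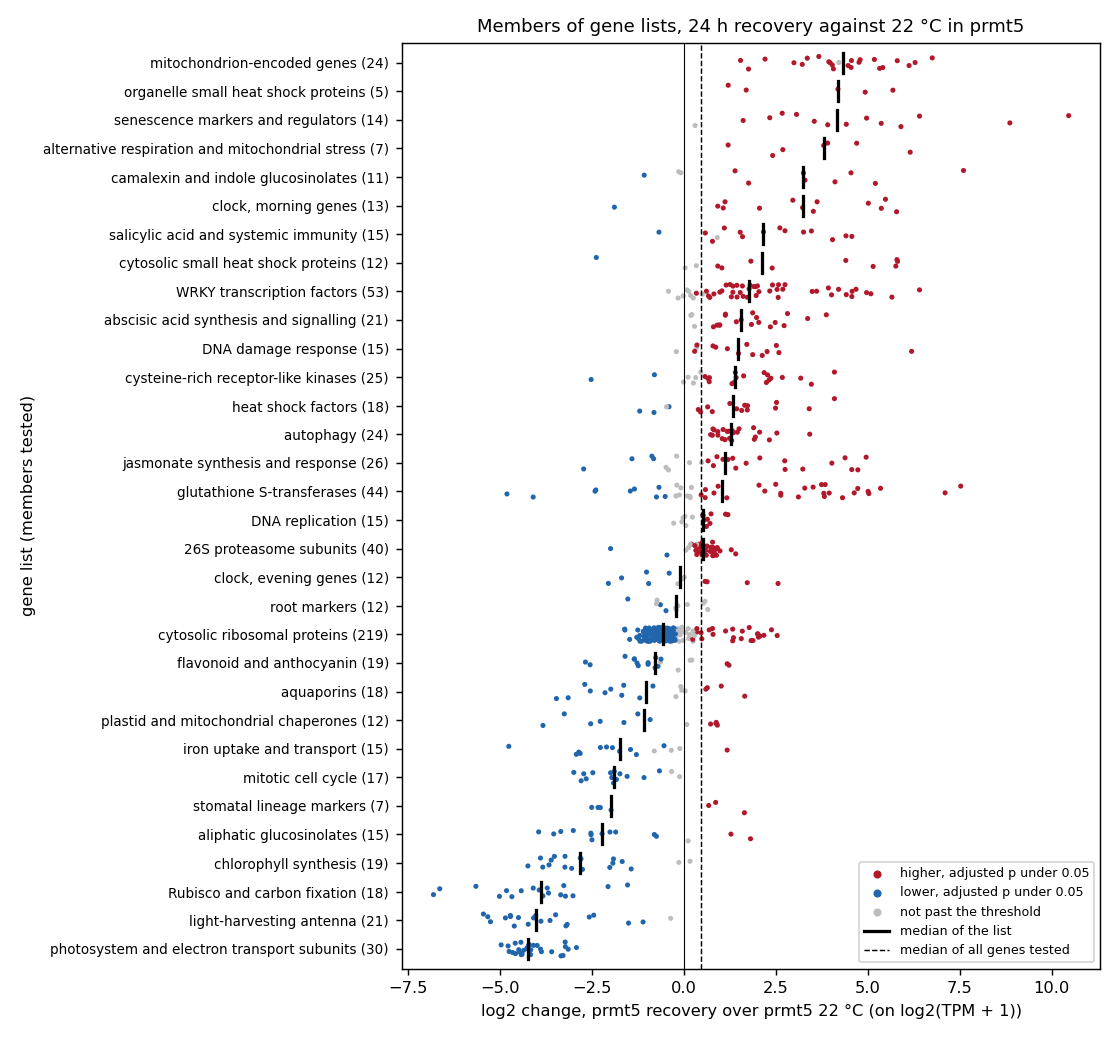
Each point is a gene of the named list, placed by its log2 change in prmt5 recovery over prmt5 22 °C, and black bars mark list medians. Photosynthesis lists lie below -2.5 with hardly a member higher, while senescence, organelle small heat shock and mitochondrion-encoded lists have medians above 4. In these last 3 lists, 3 of 14, 4 of 5 and 20 of 24 tested genes passed the filter through recovery alone.

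Abscisic acid genes rose, and cold and dehydration genes were split. Of 23 genes for abscisic acid, the hormone of water shortage, 21 were tested, 18 rose and none fell (median 1.56). Of the 21, 2 passed the filter through recovery alone. The phosphatases HAI1 (AT5G59220) and ABI2 (AT5G57050), which the hormone induces as a brake on its own signal, were both higher. HAI1 held 33.4, 32.6 and 27.3 TPM in prmt5 recovery and 2.11, 2.54 and 1.7 TPM in prmt5 22 °C (log2 change 3.37, SE 0.20, adjusted p = 3.8e-10). ABI2 held 40.7, 34.9 and 33.5 TPM in prmt5 recovery and 4.19, 4.25 and 4.38 TPM in prmt5 22 °C (log2 change 2.82, SE 0.12, adjusted p = 1.6e-11). The transcription factor gene ABF4 changed by 2.73, and CYP707A1, which breaks abscisic acid down, by 3.88. Of the 16 cold and dehydration genes tested 11 rose and 4 fell (8 and 5 with median-ratio scaling), where 3 passed the filter through recovery alone. ZAT12 (AT5G59820), a zinc-finger factor of oxidative stress, held 107, 123 and 85.5 TPM in prmt5 recovery and 1.99, 1.32 and 2.44 TPM in prmt5 22 °C (log2 change 5.19, SE 0.19, adjusted p = 2.5e-12), and the dehydrin gene LTI30 changed by 3.32. COR15B (AT2G42530), a chloroplast protein of cold acclimation, held 1.58, 1.49 and 3.13 TPM in prmt5 recovery and 143, 68.2 and 49.6 TPM in prmt5 22 °C (log2 change -4.74, SE 0.35, adjusted p = 4.9e-09), and COR413IM1, of the chloroplast inner membrane, changed by -4.88.

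Small heat shock proteins were still above their 22 °C level 24 h after the heat, and large chaperones were split. Of 12 cytosolic small heat shock proteins, which hold unfolding proteins in solution, 9 were higher and 1 was lower (median 2.11). All 5 of the organelles were higher (median 4.19). Since 4 of the 12 and 4 of the 5 had a 22 °C mean under 1 TPM, and so passed the filter through recovery alone, the direction of those 8 was fixed by the filter. HSP17.6C (AT1G53540) held 95.9, 80.7 and 107 TPM in prmt5 recovery, against 0.80, 0.57 and 0.77 TPM in prmt5 22 °C (log2 change 5.80, SE 0.18, adjusted p = 7.3e-13). HSP17.6B (AT2G29500), the most abundant of the cytosolic ones, held 233, 203 and 265 TPM in prmt5 recovery and 11.2, 9.68 and 9.28 TPM in prmt5 22 °C (log2 change 4.41, SE 0.21, adjusted p = 4.1e-11). Neither gene's groups came near each other, and library 3 was the highest of the recovery libraries in both. HSP17.6II and HSP17.7 changed by 5.81 and 5.15. HSP21 (AT4G27670) of the plastid held 49.1, 44.3 and 59.1 TPM in prmt5 recovery and was listed at 0 in all 3 prmt5 22 °C libraries. HSP22.0 of the endoplasmic reticulum and HSP23.6 of mitochondria changed by 4.93 and 4.19. HSP17.4B (AT1G54050) was the exception, with 2.76, 1.95 and 2.93 TPM in prmt5 recovery and 18.3, 15.9 and 17.76 TPM in prmt5 22 °C (log2 change -2.38, SE 0.13, adjusted p = 1.2e-10).

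The upstream region of HSP17.6C is shown because it carries the element bound by heat shock factors, inverted GAA repeats. It is given 5′ to 3′ on the gene's plus strand, 250 bases before the annotated start, chr1:19980049-19980298 of TAIR10.1, with matches to GAANNTTC and TTCNNGAA in capitals (N is any base). Here 1 match of each overlaps the other, beginning 53 and 48 bases before the start.
HSP17.6C: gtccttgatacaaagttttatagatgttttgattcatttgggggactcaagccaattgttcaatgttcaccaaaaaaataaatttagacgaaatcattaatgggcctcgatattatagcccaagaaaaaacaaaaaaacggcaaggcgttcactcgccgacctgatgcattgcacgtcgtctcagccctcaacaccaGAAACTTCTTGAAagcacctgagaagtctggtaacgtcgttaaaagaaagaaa
In windows from 250 bases before to 50 after the start, read on both strands, TTCNNGAA occurred in 5 of the 12 cytosolic small heat shock genes (41.7%), 1 of the 5 organelle ones (20%) and 9.11% of the 19656 tested genes with such a window. GAANNTTC occurred in 2 of the 12 cytosolic ones (16.7%), 3 of the 5 organelle ones (60%) and 11.3% of tested genes. Among genes called at least 2-fold higher the shares were 9.75% and 12.6%. TTCNNGAA was also frequent in other lists, in 5 of 13 morning clock genes (38.5%), 5 of 18 carbon fixation genes (27.8%) and 7 of 30 photosystem genes (23.3%). In evening clock genes it was in 1 of 12 (8.33%). These matches are descriptions of letters and not sites shown to be bound.

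Of 10 genes for cytosolic HSP70, HSP90 and HSP101, the folding and disaggregating chaperones, 5 were higher and 5 lower. HSP70-1 (AT5G02500), the major constitutive HSP70, held 287, 287 and 269 TPM in prmt5 recovery, against 1107, 1311 and 1407 TPM in prmt5 22 °C (log2 change -2.17, SE 0.12, adjusted p = 1.4e-10), and its neighbour HSP70-2 changed by -1.88. The inducible HSP90.1 (AT5G52640) held 36.3, 34.7 and 31.6 TPM in prmt5 recovery and 5.34, 5.72 and 5.9 TPM in prmt5 22 °C (log2 change 2.401, SE 0.16, adjusted p = 1.7e-09), and HSP70-4 changed by 1.63. Of 12 chaperones of plastids and mitochondria 7 were lower and 4 higher (median -1.08). CPN60B (AT1G55490), a chloroplast chaperonin that folds Rubisco among others, held 42.2, 32.1 and 39.1 TPM in prmt5 recovery and 433, 632 and 598 TPM in prmt5 22 °C (log2 change -3.83, SE 0.16, adjusted p = 1.1e-11), and CPN60A changed by -3.25. Of 13 co-chaperones and thermotolerance factors 11 were higher and none was lower (median 1.51), against 8 higher and 3 lower with median-ratio scaling. The higher ones included HSA32, which extends acquired thermotolerance (2.54), the co-chaperone ROF2 (2.098), the J-domain protein TMS1 (2.35) and the transcription factor DREB2A (2.04).

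Heat shock factors, the transcription factors of the response, were mostly higher. Of 21, 18 were tested, 14 rose and 3 fell (median 1.35), where 2 passed the filter through recovery alone. HSFB1 (AT4G36990), a repressor of the class B type, held 332, 371 and 244 TPM in prmt5 recovery and 16.5, 16.3 and 19.1 TPM in prmt5 22 °C (log2 change 4.096, SE 0.28, adjusted p = 1.9e-09), and HSFA4A and HSFB2A changed by 3.41 and 2.52. HSFA2 (AT2G26150), the amplifier of long heat responses, had returned to a few TPM, with 2.53, 1.88 and 1.68 TPM in prmt5 recovery and 0.41, 0.65 and 1.34 TPM in prmt5 22 °C (log2 change 0.77, SE 0.21, adjusted p = 0.0034), a call lost with a pseudocount of 5 and with quantile normalization. Of 23 genes for folding in the endoplasmic reticulum 13 rose and 9 fell, with a median of 0.52 that was 0.07 with median-ratio scaling. BZIP60 and NAC103, transcription factors of the unfolded protein response, changed by 2.29 and 1.85. GOLS1, which makes galactinol and is a target of heat shock factors, held 102, 88.8 and 97.6 TPM in prmt5 recovery and 3.27, 3.14 and 4.45 TPM in prmt5 22 °C (log2 change 4.40, SE 0.18, adjusted p = 6.3e-12).

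Transcripts of alternative respiration rose without exception in the list. All 7 genes were at least 2-fold higher (median 3.80). AOX1A (AT3G22370), the alternative oxidase that bypasses the energy-conserving end of the electron chain, held 461, 502 and 436 TPM in prmt5 recovery, against 31.9, 27.2 and 31 TPM in prmt5 22 °C (log2 change 3.91, SE 0.10, adjusted p = 1.1e-13). AOX1D (AT1G32350) held 82.8, 113 and 38.3 TPM in prmt5 recovery and 0.04, 0 and 0 TPM in prmt5 22 °C. OM66 of the outer mitochondrial membrane and the external NADH dehydrogenase NDB2 changed by 4.70 and 3.80. Mitochondrion-encoded transcripts, which oligo-dT selection catches only in part, took 0.249% to 0.862% of TPM in prmt5 recovery and 0.00667% to 0.0116% in prmt5 22 °C, and the highest recovery value was that of library 3, beside 0.260% in library 1. Of 52 such genes 24 were tested, 20 of them with a 22 °C mean under 1 TPM. COX2 (ATMG00160), a subunit of cytochrome oxidase, held 147, 145 and 113 TPM in prmt5 recovery and 0.82, 1 and 0.99 TPM in prmt5 22 °C (log2 change 6.13, SE 0.14, adjusted p = 4.3e-14). A copy of mitochondrial DNA lies in nuclear chromosome 2, and the table cannot tell its transcripts from those of the organelle.

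Scavengers of reactive oxygen were split much as all genes were, with 10 of 20 higher and 5 lower (10 and 9 with median-ratio scaling), but some members changed strongly. CSD1 (AT1G08830), a cytosolic copper/zinc superoxide dismutase, held 741, 717 and 609.8 TPM in prmt5 recovery, against 17.84, 19.1 and 26.48 TPM in prmt5 22 °C (log2 change 4.98, SE 0.17, adjusted p = 1.2e-12). APX1 (AT1G07890), the main cytosolic ascorbate peroxidase, held 2797, 2647 and 2831 TPM in prmt5 recovery and 1004, 873 and 858 TPM in prmt5 22 °C (log2 change 1.60, SE 0.12, adjusted p = 4.6e-09). CAT2 (AT4G35090), the leaf peroxisomal catalase, held 319.6, 335 and 387 TPM in prmt5 recovery and 126, 89.9 and 84.1 TPM in prmt5 22 °C (log2 change 1.81, SE 0.17, adjusted p = 9.9e-08). APX2, an inducible peroxidase, had 34.4, 37.5 and 38.4 TPM in prmt5 recovery and 0, 0 and 0.30 TPM in prmt5 22 °C. Of 15 genes tested for iron uptake and transport 11 were lower and 1 higher (median -1.74), where 3 passed the filter through 22 °C alone. NAS4 (AT1G56430), a nicotianamine synthase, held 2.28, 1.45 and 2.97 TPM in prmt5 recovery, against 76.4, 81.8 and 97.3 TPM in prmt5 22 °C (log2 change -4.76, SE 0.20, adjusted p = 1e-11). The root iron transporter IRT1, its regulator BHLH100 and the phloem transporter OPT3 changed by -2.85, -2.92 and -1.29. The iron store FER1 (AT5G01600) was higher, with 658, 664 and 596 TPM in prmt5 recovery and 119.6, 96.7 and 85.6 TPM in prmt5 22 °C (log2 change 2.67, SE 0.23, adjusted p = 2.5e-08), as was FER2 (3.34).

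Morning genes of the circadian clock rose strongly. The plant clock is a loop in which the morning factors CCA1 and LHY, the daytime PRR genes and the evening gene TOC1 repress each other in turn. Of 13 morning genes 12 were higher and 1 lower (median 3.23), where 6 had a 22 °C mean under 1 TPM and passed the filter through recovery alone. LHY (AT1G01060) held 83.3, 72.5 and 65.2 TPM in prmt5 recovery, against 0.39, 0.30 and 0.35 TPM in prmt5 22 °C (log2 change 5.79, SE 0.14, adjusted p = 1e-13). CCA1 (AT2G46830) held 56.6, 48.3 and 46.4 TPM in prmt5 recovery, against 0.10, 0.17 and 0.17 TPM in prmt5 22 °C (log2 change 5.48, SE 0.18, adjusted p = 8.7e-13). The recovery libraries lay close together and all 22 °C values were below 1 TPM. The coactivator genes LNK3 and LNK4 changed by 5.37 and 5.02, and PRR9 (AT2G46790) held 16.6, 12.1 and 14.5 TPM in prmt5 recovery and 0.28, 0.45 and 0.27 TPM in prmt5 22 °C (log2 change 3.52, SE 0.14, adjusted p = 5e-12). RVE2 (AT5G37260), a relative of CCA1, was the 1 lower gene, with 19.5, 19.7 and 14.9 TPM in prmt5 recovery and 71.9, 68.5 and 66 TPM in prmt5 22 °C (log2 change -1.89, SE 0.12, adjusted p = 5.8e-10). Of 12 evening genes 4 were higher and 5 lower (median -0.11), and 2 and 8 with median-ratio scaling. PRR5 and GI were higher (2.56 and 1.73), and PRR3 and TOC1 lower (-2.05 and -0.95). The hour of harvest is not given in the sources used here, so recovery and hour of day cannot be told apart for these genes.

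**Figure D4:**
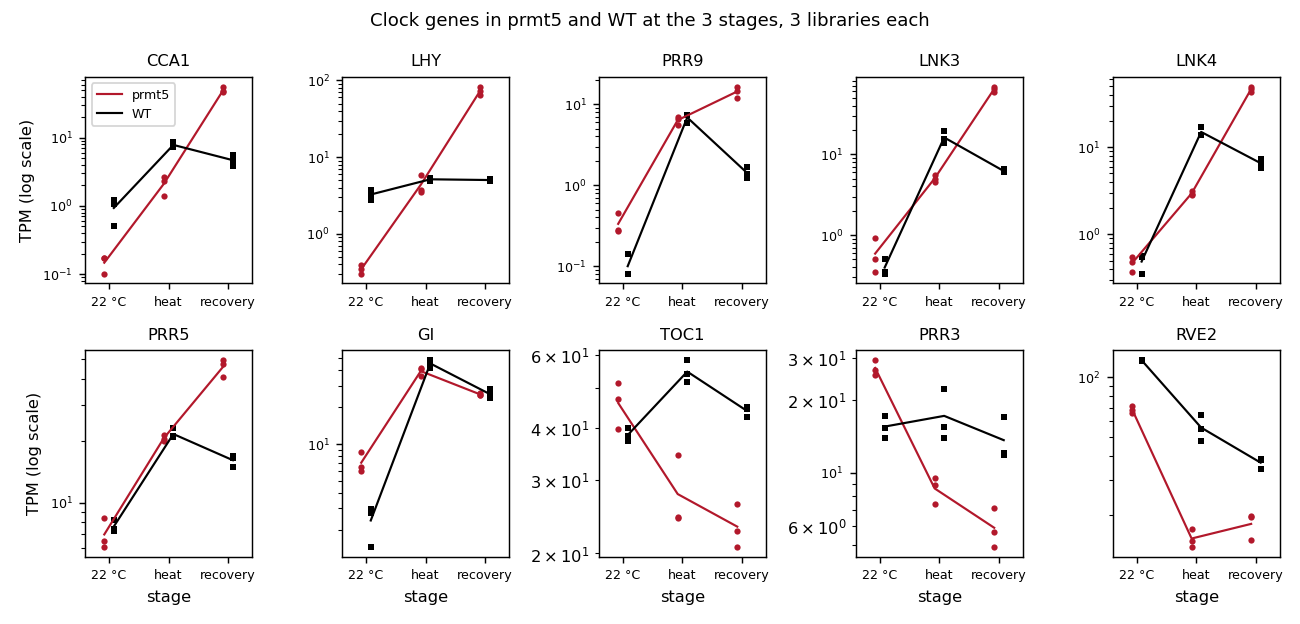
TPM (log scale) of 10 clock genes in prmt5 (red circles) and WT (black squares) at 22 °C, after heat and at recovery, each with its 3 libraries and a line through the means. CCA1, LHY, LNK3 and LNK4 climb about 10-fold or more between heat and recovery in prmt5 and stay level or fall in WT.

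Upstream regions of 4 morning genes are shown because the G-box, CACGTG, recurs in them. Each is 250 bases before the annotated start, 5′ to 3′ on the gene's own strand, from TAIR10.1, with CACGTG in capitals: CCA1 on the plus strand, chr2:19245341-19245590, LHY on the minus strand, chr1:37872-38121, LNK3 on the plus strand, chr3:3923265-3923514, and PRR9 on the plus strand, chr2:19232357-19232606. The motif begins 193 bases before the start of CCA1, 80 before LHY, 171 and 141 before LNK3, and 244 and 172 before PRR9.
CCA1: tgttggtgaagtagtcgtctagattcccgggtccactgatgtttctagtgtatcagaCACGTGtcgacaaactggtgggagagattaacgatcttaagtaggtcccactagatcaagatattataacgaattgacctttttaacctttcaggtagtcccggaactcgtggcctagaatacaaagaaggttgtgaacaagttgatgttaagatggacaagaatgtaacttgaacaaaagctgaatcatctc
LHY: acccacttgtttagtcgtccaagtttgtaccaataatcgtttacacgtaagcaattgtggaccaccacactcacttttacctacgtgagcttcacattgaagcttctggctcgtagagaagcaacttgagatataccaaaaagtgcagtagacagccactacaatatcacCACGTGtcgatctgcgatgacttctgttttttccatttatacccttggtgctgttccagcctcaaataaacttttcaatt
LNK3: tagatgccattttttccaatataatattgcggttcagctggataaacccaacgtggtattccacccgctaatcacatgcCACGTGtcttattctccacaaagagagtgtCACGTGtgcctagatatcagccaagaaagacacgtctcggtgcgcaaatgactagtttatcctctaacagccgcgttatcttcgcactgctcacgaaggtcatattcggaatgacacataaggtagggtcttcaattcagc
PRR9: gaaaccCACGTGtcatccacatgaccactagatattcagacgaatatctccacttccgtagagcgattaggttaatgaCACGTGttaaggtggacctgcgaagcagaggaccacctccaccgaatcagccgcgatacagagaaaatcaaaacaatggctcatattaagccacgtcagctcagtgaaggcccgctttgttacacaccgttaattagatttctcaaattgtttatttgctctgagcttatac
In the windows from 250 bases before to 50 after the start, CACGTG, which reads the same on both strands, occurred in 10 of 13 morning genes (76.9%) and 2 of 12 evening genes (16.7%), and in 8.77% of tested genes. The evening element AAATATCT, searched on both strands, occurred in 6 of 12 evening genes (50%) and 1 of 13 morning genes (7.69%), and in 6.03% of tested genes. Over all genes called at least 2-fold higher or lower, CACGTG was in 9.68% and 9.07%, and AAATATCT in 6.36% and 6.23%. Lists that fell also held CACGTG, in 12 of 30 photosystem genes (40%), 4 of 18 carbon fixation genes (22.2%) and 4 of 21 antenna genes (19.05%). Of 219 ribosomal protein genes 10 held it (4.57%). TTGACC, the core of the box bound by WRKY factors, was in 16.6% of genes called at least 2-fold higher, 11.7% of those called at least 2-fold lower and 14.3% of tested genes.

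Cell division genes fell and DNA damage genes rose. Of 17 genes of mitosis 15 were lower, 14 of them by at least 2-fold, and none was higher (median -1.89). KN (AT1G08560), the syntaxin of the dividing cell plate, held 15.8, 16.1 and 15.6 TPM in prmt5 recovery, against 84.2, 129 and 121 TPM in prmt5 22 °C (log2 change -2.72, SE 0.14, adjusted p = 9e-11). CYCB1;2 (AT5G06150), a mitotic cyclin, held 7.23, 6.27 and 7.88 TPM in prmt5 recovery and 36.7, 58.8 and 57.5 TPM in prmt5 22 °C (log2 change -2.65, SE 0.18, adjusted p = 1.3e-09), and CDC20.1, an activator of the anaphase-promoting complex, changed by -2.79. The G1 cyclin gene CYCD1;1 changed by -2.99. Library 1 of prmt5 22 °C was the lowest of its group for KN, CYCB1;2 and CDC20.1, and all 22 °C libraries were above all recovery libraries. Of 15 DNA replication genes 9 rose and none fell, with a median of 0.52 near that of all genes. With median-ratio scaling 5 rose and 5 fell. The licensing factor CDC6 changed by 1.20.

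Of 15 DNA damage response genes 13 rose and none fell (median 1.49). SMR5 (AT1G07500), an inhibitor of cyclin-dependent kinases, held 93.3, 74.3 and 54.2 TPM in prmt5 recovery and was listed at 0 in all 3 prmt5 22 °C libraries. Its relative SMR7 (AT3G27630) held 30.4, 29.7 and 29.1 TPM in prmt5 recovery and 4.81, 4.89 and 3.52 TPM in prmt5 22 °C (log2 change 2.52, SE 0.15, adjusted p = 3.3e-10). NAC044 (AT3G01600) and NAC085, transcription factors that arrest the cell cycle after damage, and GMI1 of DNA repair changed by 2.13, 2.59 and 2.27.

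Most ribosomal protein genes fell, few of them by 2-fold. Of 227 genes for cytosolic ribosomal proteins 219 were tested, 177 fell and 24 rose (median -0.56), and 22 fell and 16 rose by at least 2-fold. With median-ratio scaling 191 fell and 18 rose, 115 of them lower by at least 2-fold. The list's summed share of TPM was 6.48% to 6.97% in prmt5 recovery and 8.29% to 10.4% in prmt5 22 °C. RPL37AC (AT3G60245), the most abundant member, held 1130.1, 1118 and 1210.5 TPM in prmt5 recovery and 1301, 1646 and 1641 TPM in prmt5 22 °C (log2 change -0.40, SE 0.09, adjusted p = 0.00078), a call lost with quantile normalization. Members of these families are near-identical, so values of single genes are uncertain. Of 17 genes for rRNA processing 4 rose and 4 fell (median -0.10), against 1 and 12 with median-ratio scaling. FIB2 (AT4G25630), a fibrillarin that methylates rRNA, held 77.8, 73.2 and 79.3 TPM in prmt5 recovery and 91.8, 140.1 and 146 TPM in prmt5 22 °C (log2 change -0.68, SE 0.15, adjusted p = 0.00053). NOP56 (AT1G56110), a core protein of the same particles, held 169.9, 162 and 166 TPM in prmt5 recovery and 141, 215 and 223 TPM in prmt5 22 °C and did not pass (adjusted p = 0.19), with the groups overlapping. It passed as lower with median-ratio scaling, with quantile normalization and without prmt5 22 °C library 1. REIL2, a factor that matures the large subunit in the cytosol, was higher (1.20).

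The upstream region of NOP56 is shown because it holds the 2 motifs best known from genes of ribosome assembly. It is 250 bases before the annotated start, 5′ to 3′ on the gene's minus strand, chr1:20986953-20987202 of TAIR10.1, with matches to AAACCCTA (the telo box) and TGGGCC (the core of site II elements) in capitals on either strand. AAACCCTA begins 17 bases before the start and TGGGCC or its complement 126, 81 and 74 bases before it.
NOP56: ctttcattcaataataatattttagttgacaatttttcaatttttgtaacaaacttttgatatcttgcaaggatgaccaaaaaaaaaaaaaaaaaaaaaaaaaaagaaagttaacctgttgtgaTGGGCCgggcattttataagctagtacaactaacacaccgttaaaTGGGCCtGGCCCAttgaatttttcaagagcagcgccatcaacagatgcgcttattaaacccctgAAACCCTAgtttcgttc
Within the 300-base windows, AAACCCTA occurred in 12 of 17 rRNA processing genes (70.6%), 103 of 219 ribosomal protein genes (47.0%) and 5.66% of tested genes. TGGGCC occurred in 12 (70.6%), 141 (64.4%) and 18.9%. It is not particular to these lists, with 9 of the 12 cytosolic small heat shock genes (75%) and 3 of the 5 organelle ones (60%). In the antenna list it was in 1 of 21 genes (4.76%). Among genes called at least 2-fold higher and lower the telo box was in 4.04% and 3.99%, and TGGGCC in 15.52% and 16.05%.

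Transcripts of protein families that include PRMT5 substrates, and of relatives of PRMT5, moved in both directions. In a list of 26 genes, the Sm and LSm proteins with GRP7 and GRP8, 8 rose and 9 fell (median -0.06), with 1 gene past 2-fold in each direction. With median-ratio scaling 1 rose and 17 fell. GRP8 (AT4G39260), a glycine-rich RNA-binding protein, held 1731, 1895 and 2037 TPM in prmt5 recovery and 748, 789 and 829 TPM in prmt5 22 °C (log2 change 1.26, SE 0.11, adjusted p = 3.9e-08). GRP7 (AT2G21660) held 5167, 5518 and 6152 TPM in prmt5 recovery and 5522, 6964 and 6966 TPM in prmt5 22 °C, with overlapping groups (adjusted p = 0.2), its sign turned under quantile normalization, and it passed as lower with median-ratio scaling. Of 9 protein arginine methyltransferases 2 rose and 3 fell, none of them by 2-fold, and with median-ratio scaling none rose and 6 fell, 3 of them by at least 2-fold. PRMT1B was higher (0.51, a call lost under median-ratio scaling) and PRMT1A lower (-0.90). Of 19 SR splicing factors 10 rose and 7 fell, against 6 and 8 with median-ratio scaling. SR30 (AT1G09140) held 127, 111 and 120.2 TPM in prmt5 recovery and 23.48, 28.2 and 33.8 TPM in prmt5 22 °C (log2 change 2.04, SE 0.11, adjusted p = 8e-11). SCL30A (AT3G13570) held 12.4, 10.3 and 7.86 TPM in prmt5 recovery and 44.6, 55.6 and 62.1 TPM in prmt5 22 °C (log2 change -2.31, SE 0.14, adjusted p = 3.8e-10). TPM per gene do not show which isoforms were spliced.

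Aquaporin genes were lower on balance and genes of the cell wall were split. Of 18 aquaporins 10 fell and 4 rose (median -1.02). TIP1;1 (AT2G36830), of the vacuole membrane, held 46.9, 32.7 and 48.6 TPM in prmt5 recovery and 363, 375 and 402 TPM in prmt5 22 °C (log2 change -3.14, SE 0.19, adjusted p = 3.5e-10). PIP2;8 and PIP1;2, of the plasma membrane, changed by -3.46 and -0.84. Expansins and xyloglucan enzymes, which loosen or remodel walls, were split into 5 higher and 5 lower of 13. EXPA5 (AT3G29030) held 0.26, 0.38 and 0.28 TPM in prmt5 recovery, against 32.5, 24.2 and 22.9 TPM in prmt5 22 °C (log2 change -4.38, SE 0.26, adjusted p = 3e-10). XTH24 (AT4G30270) held 1799, 1806 and 1247 TPM in prmt5 recovery, against 30.8, 24.1 and 26.52 TPM in prmt5 22 °C (log2 change 5.83, SE 0.25, adjusted p = 1.1e-11), and XTH18 changed by 5.95. Of 19 flavonoid genes tested 13 fell and 2 rose (median -0.78). FLS1, a flavonol synthase, and CHS, chalcone synthase, changed by -2.55 and -0.97. HY5, a factor of light signalling, rose (1.67), and PIF4, a factor of warmth and shade growth, fell (-0.67, a call lost without recovery library 1).

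Marker lists of tissues and cell types other than green leaf were mostly measured in both groups. The summed level of the root markers was 83.5 to 96.7 TPM in prmt5 recovery and 94.3 to 124 TPM in prmt5 22 °C, and 3 of 12 tested members were lower and none was higher. SCR of the root endodermis had 11.9, 11.1 and 11.4 TPM in prmt5 recovery and 13.8, 17 and 18.9 TPM in prmt5 22 °C. That of the vascular markers was 354 to 408 TPM in prmt5 recovery and 144 to 172 TPM in prmt5 22 °C. Of its 10 members 5 rose and 1 fell (median 0.29, under that of all genes), and with median-ratio scaling 4 rose and 5 fell. The largest changes were those of XCP1 (AT4G35350) and XCP2, proteases of forming xylem (2.47 and 1.76). That of the stomatal lineage markers was 62.9 to 73.3 TPM in prmt5 recovery and 83.3 to 125 TPM in prmt5 22 °C. SPCH (AT5G53210), which starts the lineage, held 1.53, 1.67 and 1.4 TPM in prmt5 recovery and 10.3, 15.2 and 15.2 TPM in prmt5 22 °C (log2 change -2.50, SE 0.19, adjusted p = 4.8e-09). MUTE (AT3G06120), which ends its divisions, held 23.2, 20.8 and 20.4 TPM in prmt5 recovery and 4.03, 8.6 and 6.58 TPM in prmt5 22 °C (log2 change 1.65, SE 0.19, adjusted p = 8.1e-07). These genes of 1 lineage moved opposite ways. The shoot meristem markers summed to 32.7 to 33.3 TPM in prmt5 recovery and 34.9 to 50.4 TPM in prmt5 22 °C. Of 9 seed maturation markers 1 was tested, EM6, and their sum was at most 6.17 TPM in prmt5 recovery and 1.26 TPM in prmt5 22 °C. Of 6 floral organ markers 2 were tested, and AP3 (AT3G54340) held 4.92, 5.72 and 7.63 TPM in prmt5 recovery and 0.11, 0.24 and 0.11 TPM in prmt5 22 °C (log2 change 2.60, SE 0.18, adjusted p = 2.7e-09). The part of a changed mix of cells in the results above was not tested.

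The response in prmt5 was next set against that in WT, with the interaction, the recovery change in prmt5 minus the recovery change in WT, as the test. It passed for 10080 of 21152 genes (47.7%), with 5814 changing more upward in prmt5 (27.5%) and 4266 more downward (20.2%), and a median of 0.10. At least 2-fold, 2377 changed more upward (11.2%) and 2064 more downward (9.76%). Genes were kept by prmt5 levels only. By construction, those that passed through prmt5 recovery alone favour a positive interaction, and those through prmt5 22 °C alone a negative one. Genes measured only in WT were left out. With the filter on the mean over all 18 libraries the 2-fold counts were 2262 upward and 2127 downward. Quantile normalization turned the balance of all calls, with 5098 more upward and 5282 more downward. The photosynthesis lists fell further in prmt5. The interaction was negative and past the threshold for 29 of 30 photosystem genes, 17 of 18 carbon fixation genes and 17 of 21 antenna genes. Median changes of these lists were -4.23, -3.88 and -4.03 in prmt5 and -2.08, -2.27 and -1.81 in WT. RBCS1B stood at 42, 120.0 and 102 TPM in prmt5 recovery and 1534, 1338 and 2238 TPM in WT recovery, from 8142 TPM in prmt5 22 °C and 8137 TPM in WT 22 °C on average (interaction -4.34, SE 0.64, adjusted p = 7e-05).

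Senescence, camalexin and autophagy lists had higher changes in prmt5. The interaction was positive and past the threshold for 11 of 14 senescence genes, 9 of 11 camalexin and indole genes, 24 of 53 WRKY genes and 21 of 24 autophagy genes. It was negative for 1 of the 53 WRKY genes and none of the others. The cysteine-rich receptor-like kinases had 8 positive and 5 negative interactions of 25, shares near those of all genes, with medians of 1.38 in prmt5 and 1.47 in WT. Salicylic acid genes had 7 positive and 2 negative of 15. BCB held 1328, 1352 and 777 TPM in prmt5 recovery and 156, 141 and 115 TPM in WT recovery, with means of 1.4 TPM in prmt5 22 °C and 5.96 TPM in WT 22 °C (interaction 4.52, SE 0.34, adjusted p = 3.8e-07). PAD3 averaged 879 TPM in prmt5 recovery and 89.5 TPM in WT recovery (interaction 3.83, SE 0.54, adjusted p = 5.2e-05). The CAT2 means moved opposite ways in the genotypes. CAT2 averaged 348 TPM in prmt5 recovery and 99.97 TPM in prmt5 22 °C, and 117 TPM in WT recovery and 326 TPM in WT 22 °C (interaction 3.27, SE 0.25, adjusted p = 3.8e-07).

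Growth-related and some secondary metabolism lists had lower medians in prmt5 than in WT. Ribosomal protein genes had a median change of -0.56 in prmt5 and 0.45 in WT, and the interaction was negative and past the threshold for 204 of 219 and positive for 8. Of 17 rRNA processing genes 15 had a negative interaction and 1 a positive one, with list medians of -0.10 in prmt5 and 0.94 in WT. FIB2 averaged 76.8 TPM in prmt5 recovery and 126 TPM in prmt5 22 °C, and 294 TPM in WT recovery and 133 TPM in WT 22 °C (interaction -1.81, SE 0.21, adjusted p = 9.8e-06). Aliphatic glucosinolate genes had medians of -2.22 in prmt5 and 0.07 in WT, and 12 of 15 had a negative interaction. CYP79F1 averaged 7.09 TPM in prmt5 recovery and 113 TPM in prmt5 22 °C, and 65.6 TPM in WT recovery and 70.5 TPM in WT 22 °C (interaction -3.80, SE 0.73, adjusted p = 0.00062). Flavonoid genes had medians of -0.78 in prmt5 and 0.87 in WT, with 14 of 19 interactions negative. DFR, of anthocyanin synthesis, had an interaction of -2.78 (adjusted p = 0.00047). Mitotic genes had medians of -1.89 in prmt5 and -0.41 in WT, with 15 of 17 interactions negative.

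Morning clock genes had median changes of 3.23 in prmt5 and 1.14 in WT, with 11 of 13 interactions positive and 1 negative. LHY averaged 73.7 TPM in prmt5 recovery and 0.35 TPM in prmt5 22 °C, and 5.03 TPM in WT recovery and 3.26 TPM in WT 22 °C (interaction 5.28, SE 0.20, adjusted p = 4.9e-10). The DNA damage list was the reverse, with medians of 1.49 in prmt5 and 2.35 in WT and with 7 of 15 interactions negative and 1 positive. NAC044 averaged 34.2 TPM in prmt5 recovery and 7.35 TPM in prmt5 22 °C, and 45 TPM in WT recovery and 1.12 TPM in WT 22 °C (interaction -2.32, SE 0.27, adjusted p = 1.3e-05). At recovery the genotypes differed by -0.38 on the log2 scale, which did not pass (adjusted p = 0.099). Mitochondrion-encoded genes had medians of 4.34 in prmt5 and 3.40 in WT.

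**Figure D5:**
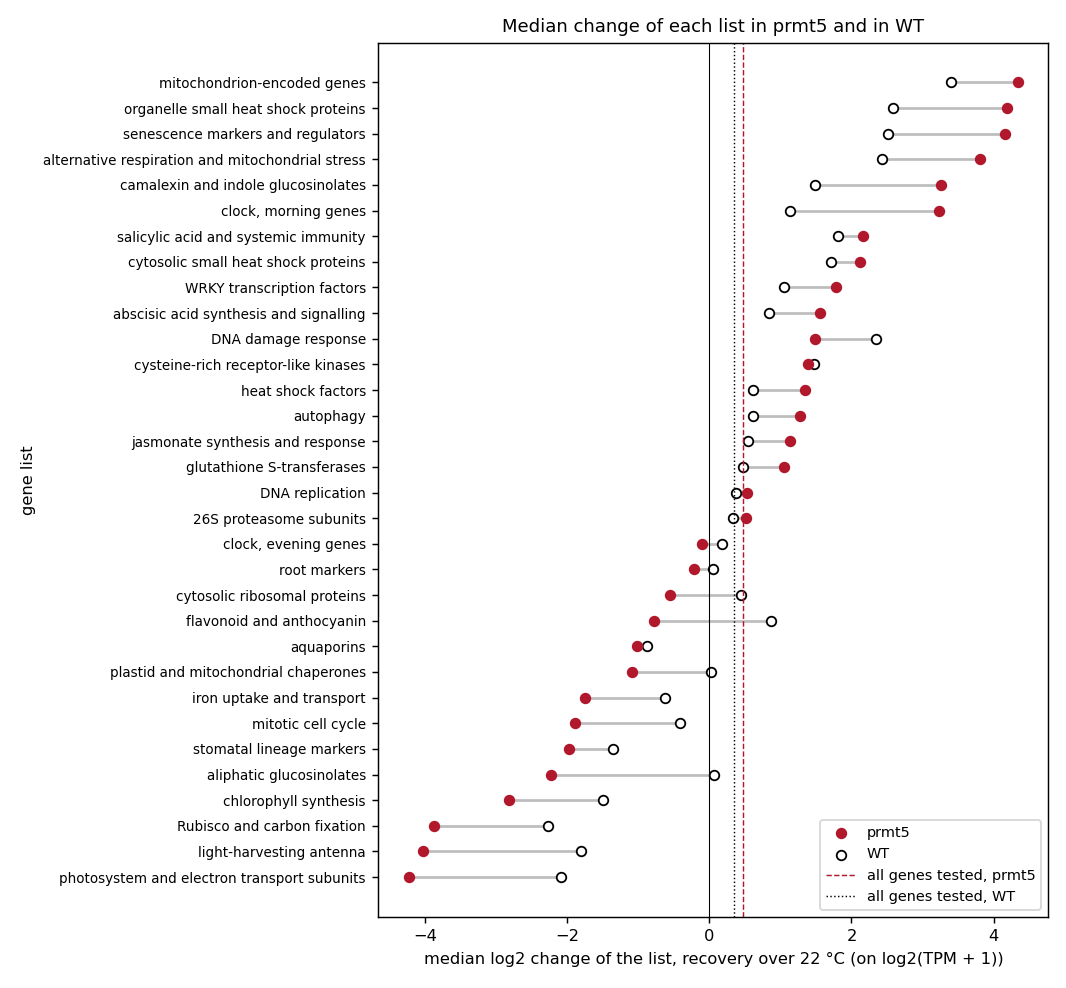
Median log2 change of each list at recovery over 22 °C in prmt5 (filled) and in WT (open), with the medians of all genes tested as broken lines. The widest gaps are in aliphatic glucosinolate, light-harvesting and photosystem lists. Lists with medians on opposite sides of 0 include those of ribosomal proteins, flavonoids and aliphatic glucosinolates. Those of organelle chaperones, evening clock genes and root markers do so too, with WT medians close to 0.

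Compared with WT at the same recovery stage, prmt5 differed in 12874 of the 21152 genes (60.9%), higher in 6171 (29.2%) and lower in 6703 (31.7%), of which 1917 (9.06%) and 2415 (11.4%) by at least 2-fold. Of 17 rRNA processing genes 16 were lower in prmt5 and 1 was higher, of 219 ribosomal protein genes 203 were lower and 10 higher, and all 18 carbon fixation genes were lower. Of 40 proteasome genes 28 were higher and 1 lower, and of 24 autophagy genes 19 were higher and none lower. MUTE averaged 21.5 TPM in prmt5 recovery and 2.58 TPM in WT recovery (log2 difference 2.66, adjusted p = 4e-08). Since both contrasts use the prmt5 recovery libraries, these differences and the recovery changes are not independent.

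Against prmt5 heat, 15382 genes differed at recovery (72.7%), 9704 higher (45.9%) and 5678 lower (26.8%), of which 5606 (26.5%) and 2247 (10.6%) by at least 2-fold, and again the recovery libraries are shared with the main contrast. The heat shock proteins had come down while senescence and defence transcripts had gone up. All 10 cytosolic HSP70, HSP90 and HSP101 genes, all 13 co-chaperones, all 5 organelle small heat shock proteins and 11 of 12 cytosolic ones were lower at recovery than at heat. By stage, HSP17.6C averaged 0.71 TPM (22 °C), 757 TPM (heat) and 94.6 TPM (recovery). HSP90.1 averaged 5.65, 784 and 34.2 TPM at the same 3 stages, and HSFA2 averaged 0.80, 106 and 2.03 TPM. All 14 tested senescence genes and all 11 camalexin and indole genes were higher at recovery than at heat. SAG13 averaged 0.45, 3.46 and 2042 TPM over those stages, and PAD3 averaged 3.49, 14.8 and 879 TPM. Photosynthesis genes went both ways. Of 30 photosystem genes 6 were higher at recovery than at heat and 9 lower, of 18 carbon fixation genes 2 were higher and 7 lower, and of 21 antenna genes 6 were higher and 7 lower. Their summed share of TPM was 0.579% to 1.21% at recovery and 1.22% to 1.59% at heat, with no overlap. The antenna list alone did overlap, with a sum of 1113 to 3195 TPM at recovery and 1580.1 to 2694 TPM at heat. LHCB1.3 averaged 8886, 139 and 337 TPM over the stages. RBCS1A averaged 18806, 1542 and 758 TPM. Flavonoid and aliphatic glucosinolate genes had risen again from heat, 17 of 19 and 13 of 15 of them, with list medians still below their 22 °C level.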

How the data were processed

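Per the submitters' processing notes, reads were assigned to TAIR10 genes with RSEM, with no version given. The deposited table holds the authors' TPM for 37916 genes in 18 libraries, and 6 columns of group means that were not used. Sequencing depth cannot be read from TPM and is unknown, so no count model was run.

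One limma 3.58.1 fit (R 4.3.3; lmFit, contrasts.fit, eBayes with trend) on log2(TPM + 1) used 6 group means and 12 residual degrees of freedom. It covered genes with a mean of 1 TPM or more over the 6 libraries compared, with Benjamini-Hochberg adjustment over all 21152 genes and a threshold of 0.05. Fold changes on this scale understate those of low genes. The fit was also run on simulated data in which few genes changed, evenly in both directions. A shift over most genes, as in these data, was not simulated.

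The members and the 57 gene lists were chosen with earlier results of these data known. Named genes are PRMT5, the 10 highest and 10 lowest changes among nuclear genes with a symbol (groups not overlapping, mean of 5 TPM or more), the 8 highest and 8 lowest interactions, and from each list up to 4 largest changes, the most abundant member and up to 2 largest interactions. Another 10 of the 171 genes in the tables were named for their role after their values were seen (LHCB1.1, LHCB2.1, LHCB2.2, HSP17.4B, HSFA2, NOP56, PRR9, TOC1, AOC2, MYB28). Symbols and promoter sequence came from RefSeq's TAIR10.1. Replicate numbers were not used to pair the libraries. Deviations from group means of same-numbered libraries had correlations of -0.145, -0.033 and -0.132. Those of differently numbered libraries ran from -0.015 to 0.166. With 3 libraries in each group these values cannot exclude a batch shared by a replicate number. Alternatives were other pseudocounts, filters, scalings, gene sets, libraries and variance models.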

Additional observations from a re-analysis of the deposited data

Results flagged for a closer look

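Recovery changes that differed between prmt5 and WT were tested with the interaction, and 10080 genes passed an adjusted p of 0.05. Among the genes named, those below differed by at least 4 on the log2 scale, leaving out genes listed at 0 throughout a group. These values chose the genes, and they are given as descriptions.

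Higher in prmt5 were FOX2 (6.15), which averaged 304 TPM in prmt5 recovery and 3.61 TPM in WT recovery, LHY (5.28), the cytochrome P450 gene CYP71B22 (5.18), the peroxidase gene PRX52 (5.02), JRG21 (4.53), BCB (4.52) and BGLU30 (4.297, and 4.97 without WT recovery library 1). CYP71B22 averaged 12.1 TPM in prmt5 recovery and 2.39 TPM in prmt5 22 °C, and 0.17 TPM in WT recovery and 11.2 TPM in WT 22 °C, so its means moved opposite ways. PRX52 held 63, 73.7 and 34 TPM in prmt5 recovery and 3.42, 1.35 and 2.58 TPM in WT recovery.

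Lower in prmt5 were CA1 (-4.04), GER3 (-4.15), the latex-protein-like genes MLP43 (-4.30) and MLP28 (-4.61), RBCS1B (-4.34), COR15B (-4.46) and LURP1 (-4.45), a gene known from responses to downy mildew. LURP1 held 0.53, 1.36 and 1.04 TPM in prmt5 recovery and 17.1, 5.88 and 7.05 TPM in prmt5 22 °C, and 33.9, 19.6 and 47.4 TPM in WT recovery and 11, 9.16 and 2.7 TPM in WT 22 °C, again with opposite signs. COR15B averaged 2.07 TPM in prmt5 recovery and 87 TPM in prmt5 22 °C, and 7.76 TPM in WT recovery and 10.5 TPM in WT 22 °C.

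The metallothionein gene MT1A had the highest value (11.05), which rests on libraries where it is listed at 0. It held 2311, 2405 and 2179.7 TPM in prmt5 recovery, 1359, 0 and 1332 TPM in prmt5 22 °C, 1295, 0 and 0 TPM in WT recovery and 1059, 1934 and 896 TPM in WT 22 °C. Its interaction was between 7.58 and 14.5 as single libraries were left out (the extremes without prmt5 22 °C library 2 and without WT recovery library 1), and it did not pass without WT recovery library 2 or 3.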

How the results depend on the processing

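Results were recomputed under 31 alternatives, 18 of them leaving out 1 library and 13 changing a setting. Leaving out each WT or prmt5 heat library, keeping only nuclear protein-coding genes, and dropping genes with a lone 0 among replicates that otherwise hold 10 TPM or more were chosen after seeing the data. The number of genes called in prmt5 recovery against prmt5 22 °C (16844) lay between 16155 and 16915 without 1 library and between 13534 and 19426 under other settings, the extremes coming from a minimum of 5 TPM and no filter. The interaction count (10080) lay between 8996 and 10293, and between 8643 and 10716. Counts for prmt5 recovery against WT recovery (12874) and against prmt5 heat (15382) stayed within 1.5 times as well. Lists with a median at least 1 away from that of all genes numbered 27 of 54 with 5 or more tested members, and 18 to 29 under the alternatives.

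Scaling moved the balance of calls. Median-ratio scaling gave 4459 genes at least 2-fold higher and 4344 lower in prmt5 recovery, and quantile normalization 4298 and 4293. A pseudocount of 5 gave 4265 higher. For the interaction it gave 1460 at least 2-fold higher and 1185 lower, where the values reported were 2377 and 2064. Quantile normalization gave 2095 higher and 2340 lower for the interaction. Against prmt5 heat the 2-fold counts were 5606 higher and 2247 lower, with 3354 higher at a pseudocount of 5 and 3381 lower with median-ratio scaling. Against WT recovery they were 1917 higher and 2415 lower, and 1158 and 1284 at a pseudocount of 5. PRMT5 turned to a log2 change of -0.20 with median-ratio scaling, -0.26 with quantile normalization and between -0.033 and 0.33 without 1 prmt5 22 °C library (-0.033 without library 1), and its TPM difference was -0.137 to 0.958 without 1 library. GRP7 turned to 0.74 with quantile normalization. The causes were not tested. Of 171 named genes 11 crossed the threshold or turned under some alternative, and of 150 interactions 12 did.

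The replicate numbers were not used to pair these libraries, and whether they mark shared batches is not given in the sources used here. With the replicate block 16740 genes were called in prmt5 recovery against prmt5 22 °C, 9832 in the interaction, 15243 against prmt5 heat and 12645 against WT recovery. Each group has 3 libraries of unknown depth, which limits values of a few TPM most.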

Other observations

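Some lists outside the groups above were also measured. Of 11 core hypoxia genes 3 rose, 2 fell and 6 did not pass in prmt5 recovery against prmt5 22 °C, and the interaction with WT was positive and past the threshold for 5 and negative for none. ADH1, the alcohol dehydrogenase of fermentation, held 215, 225 and 224 TPM in prmt5 recovery and 43.7, 52.5 and 58.5 TPM in prmt5 22 °C (log2 change 2.09, SE 0.42, adjusted p = 0.00027), and averaged 75.4 TPM in WT recovery and 137 TPM in WT 22 °C. The WT 22 °C libraries were uneven for this list, with a summed level of 158 to 582 TPM. The ADH1 interaction was 2.66, and 3.37 without WT 22 °C library 3. Of 20 flowering time genes tested 10 rose and 4 fell, near the shares of all genes, and with median-ratio scaling 2 rose and 9 fell. SEP3, a floral organ gene that is low in these seedlings, held 8.49, 9.12 and 11.2 TPM in prmt5 recovery and 7.69, 4.64 and 4.61 TPM in prmt5 22 °C, and its call was lost with both other scalings and without recovery library 3, without prmt5 22 °C library 2 or without prmt5 22 °C library 3.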
